A study of Mus musculus with 703 samples.

Results

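The data are levels of 8 genes of muscle atrophy and muscle mass control in mouse gastrocnemius, a calf muscle made mostly of fast fibres. The genes were taken by their symbols in the deposited count table, Fbxo32, Trim63, Asb2, Mstn, Foxo1, Foxo3, Klf15 and Glul, and all 8 were found among its 19088 genes. Each symbol matched a single gene, and all 8 passed the filter on low counts in every comparison.

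Muscle fibres lose mass when protein breakdown outpaces synthesis. Forkhead transcription factors of the FoxO family, which insulin signalling through Akt keeps out of the nucleus, switch on ubiquitin ligases that mark muscle proteins for the proteasome. Glucocorticoid hormones act on the same genes through their nuclear receptor, and myostatin, a secreted factor of the TGF-β family, holds muscle growth back from outside the fibre.

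The libraries were labelled as 352 females and 351 males of 20 strains, and each was taken as 1 animal. Each strain is the F1 cross of a pair of inbred Collaborative Cross (CC) lines, called a CC-RIX strain, and 19 lines gave the 20 crosses. From 6 weeks of age each animal ate either a control diet (10% fat) or a high-fat, high-sugar diet (44% fat). The labels name fibre as a part of both diets. Metformin, an antidiabetic drug, was given to 234 animals in drinking water at 5 mg/mL from the age of 7 months. The 4 untreated groups by sex and diet held 236 females and 233 males, 234 of these animals on 10% fat and 235 on 44% fat. The 4 metformin-treated groups held 57 females on 10% fat and 59 animals in each of the others, females on 44% fat and males on either diet. Animals were killed in cohorts of 6 or 12 months, but the labels give no animal's age. All treated animals must belong to the older cohort, so the drug and age cannot be told apart.

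Total counts per library ran from 27.4M to 96.1M with a median of 47.9M, and the smallest count of any of the 8 genes in any library was 356. The list of fast fibre markers had group medians of its summed level from 112461 to 124648 CPM (counts scaled to the library total). It holds the muscle genes Acta1 (median 21582 CPM over all libraries) and Ckm (13169 CPM) beside genes such as Myh4 (59513 CPM). Slow fibre markers summed to medians of 1594 to 1677 CPM in the 4 female groups and of 946 to 1012 CPM in the 4 male groups. In 15 libraries Xist was nearer the level of the other sex and 4 libraries were nearest to the profile of another strain, 19 in all, while 8 libraries held liver transcripts at 1225 to 6363 CPM against a median of 3.21 CPM. The libraries carry a sequencing identifier in a lower range (400 untreated and 144 treated animals) or an upper range (69 untreated and 90 treated animals), which was used as a batch term. Here the drug, strain and range are tied: in 8 strains all treated animals were in the lower range, and in 5 strains all were in the upper range.

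Levels per gene length placed the 8 genes over a wide range. Asb2, the subunit that selects substrates for a Cullin-5 ubiquitin ligase, was highest with a median of 125 CPM per kilobase of exon. Glul, which encodes glutamine synthetase, followed at 54 CPM per kilobase, then the ubiquitin ligases Fbxo32 (atrogin-1) at 49.1 and Trim63 (MuRF1) at 43.7 CPM per kilobase, and Mstn (myostatin) at 25.4 CPM per kilobase. The 3 transcription factors were lowest, with Klf15, a zinc finger factor of amino acid catabolism, at 7.55, Foxo3 at 4.39 and Foxo1 at 2.39 CPM per kilobase. The genes lie on 7 chromosomes of GRCm38. Fbxo32 (ENSMUSG00000022358) is at chr15:58175879-58214892 on the minus strand, Trim63 (ENSMUSG00000028834) at chr4:134315120-134329629 on the plus strand and Asb2 (ENSMUSG00000021200) at chr12:103321142-103356001 on the minus strand. Mstn (ENSMUSG00000026100) is at chr1:53061640-53068079 and Glul (ENSMUSG00000026473) at chr1:153899944-153909723, both on the plus strand. Foxo1 (ENSMUSG00000044167) is at chr3:52268336-52353221 on the plus strand, Foxo3 (ENSMUSG00000048756) at chr10:42181841-42276755 on the minus strand and Klf15 (ENSMUSG00000030087) at chr6:90462576-90475238 on the plus strand.

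Promoters are given as the 250 bases before the RefSeq start on GRCm38.p6, written 5′ to 3′ on the gene's strand. They are shown because ligases and transcription factors of this set are known to act on each other. Motifs of 3 kinds were searched on both strands: GTAAACA, the core bound by forkhead factors, TGTTCT, the core bound by the glucocorticoid receptor, and CANNTG, the E-box bound by myogenic and other helix-loop-helix factors. Trim63 (chr4:134314870-134315119) held the first motif, read as TGTTTAC on this strand, directly after the second, and capitals mark both. Mstn (chr1:53061390-53061639) and Klf15 (chr6:90462326-90462575) held neither, and capitals mark their E-boxes.
Trim63: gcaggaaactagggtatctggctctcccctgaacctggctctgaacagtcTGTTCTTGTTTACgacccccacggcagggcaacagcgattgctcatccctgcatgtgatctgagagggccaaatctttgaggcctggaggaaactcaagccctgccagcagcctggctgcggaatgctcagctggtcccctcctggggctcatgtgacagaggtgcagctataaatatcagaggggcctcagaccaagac
Mstn: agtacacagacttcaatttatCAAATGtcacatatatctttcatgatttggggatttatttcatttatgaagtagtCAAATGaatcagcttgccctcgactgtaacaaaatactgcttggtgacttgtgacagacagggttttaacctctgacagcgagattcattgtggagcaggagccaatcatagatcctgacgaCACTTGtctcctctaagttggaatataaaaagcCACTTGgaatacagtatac
Klf15: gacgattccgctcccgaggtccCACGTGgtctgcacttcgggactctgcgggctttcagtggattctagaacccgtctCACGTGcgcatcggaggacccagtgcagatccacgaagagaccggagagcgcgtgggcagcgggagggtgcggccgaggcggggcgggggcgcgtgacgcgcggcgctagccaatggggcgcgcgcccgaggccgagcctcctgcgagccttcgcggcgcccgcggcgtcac
The glucocorticoid receptor core of Trim63 ran from base -200 to -195 and the forkhead core from -194 to -188, counted from the start. Of 32851 promoters of this length, 1040 (3.17%) held GTAAACA, 5284 (16.1%) held TGTTCT and 21753 (66.2%) held CANNTG. The Trim63 promoter was the only 1 of the 32851 with these cores end to end, a count made after the sequence was seen. Promoters of Asb2, Foxo1, Foxo3 and Glul held neither of the first pair of motifs. Mstn held 4 E-boxes, Trim63 held 3, and Klf15, Glul and the upstream promoter of Asb2 held 2 each.

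**Figure D1:**
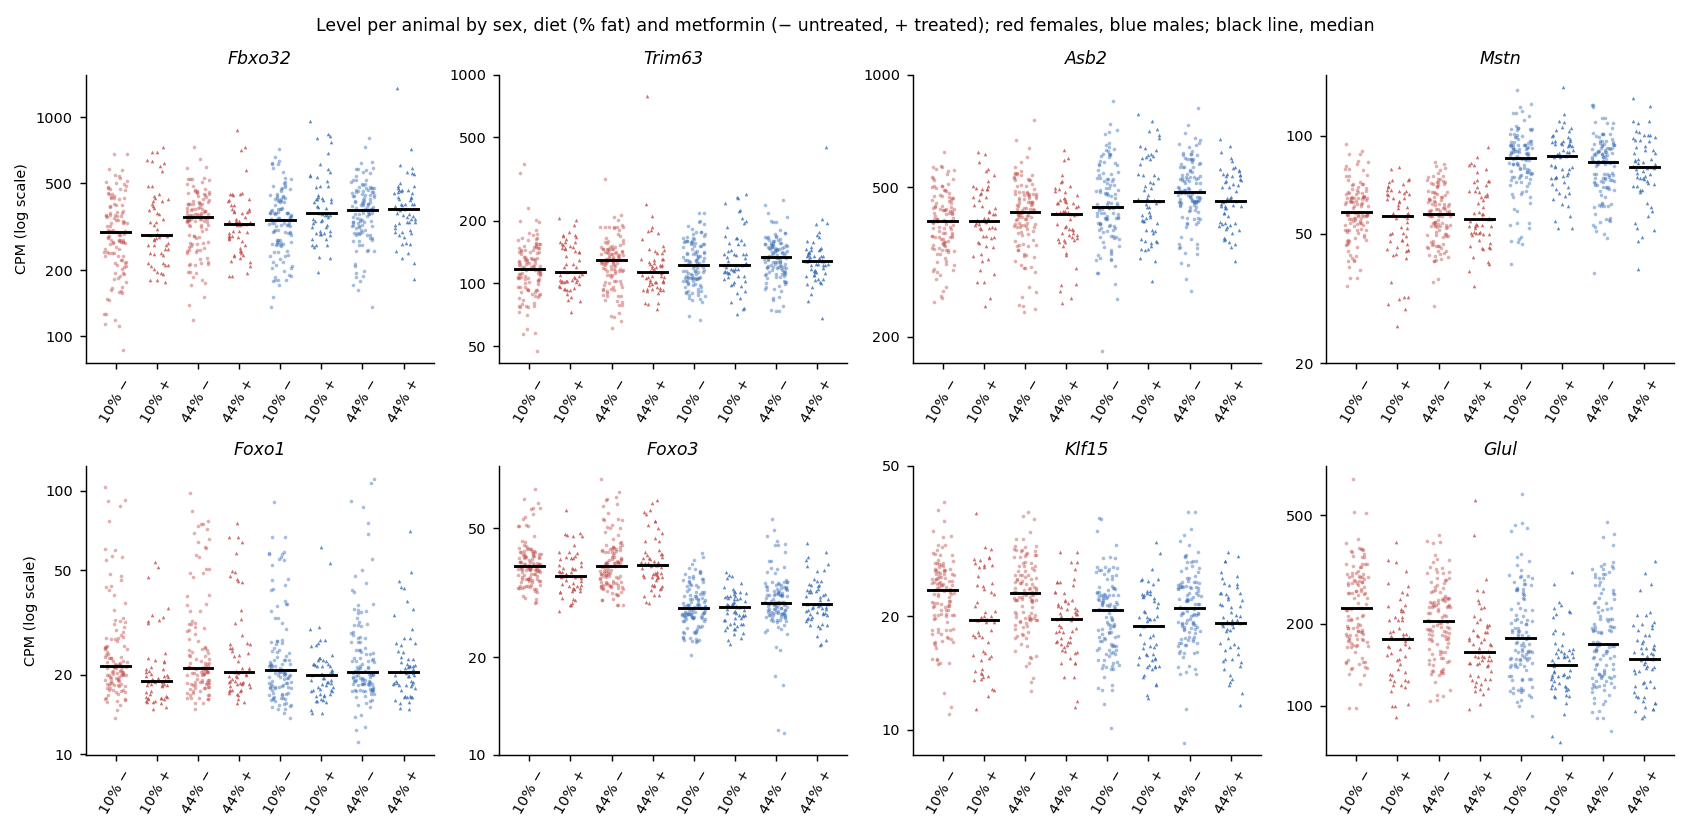
Level of each gene in every animal (CPM, log axis) by sex, percent of fat in the diet and treatment, with red points for females, blue points for males and a black line at the group median. Male Mstn and female Foxo3 sit higher on both diets with and without metformin, and Foxo1 has a long upper tail in all 8 groups.

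The first question was how far the genes differ between genetic backgrounds. All 8 differed between the 20 strains in untreated animals, where 95.4% of all genes tested did. Adjusted p-values here and below come from edgeR's quasi-likelihood test, adjusted over all genes tested, unless another method is named beside them. In bulk muscle, fewer cells of a type and less RNA per cell cannot be told apart. Strain took its largest share of the variance among the 8 genes in Trim63, 32.3%, followed by Fbxo32 (19.7%), Asb2 (19.5%), Mstn (15.4%), Glul (13.7%), Klf15 (9.75%), Foxo3 (5.39%) and Foxo1 (4.97%). Genes of 5 CPM or higher on average had a median of 18.6%, so Trim63, Fbxo32 and Asb2 lay above that median and the other 5 genes below it.

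Glul had the widest spread of strain means. It was highest in (CC051/TauUncJ x CC019/TauUncJ)F1, at 308 ± 102.7 CPM (SD, n = 24), where single animals ran from 154 to 601 CPM. It was lowest in (CC009/UncJ x CC013/GeniUncJ)F1, at 127 ± 28.7 CPM (SD, n = 10), with animals from 91.6 to 172 CPM, a 2.43-fold range of means. All 10 of those untreated animals carry identifiers of the upper range, where Glul was also lower in the fit that holds strain constant (-0.32 ± 0.08 on the log2 scale, adjusted p = 0.00074). Trim63 spanned 1.91-fold, from 170 ± 31.1 CPM (SD, n = 24) in (CC001/UncJ x CC042/GeniUncJ)F1 to 88.8 ± 18.9 CPM (SD, n = 26) in (CC004/TauUncJ x CC019/TauUncJ)F1. These strains barely overlapped, with animals from 121 to 252 CPM in the former and from 57.3 to 123 CPM in the latter. Fbxo32 was lowest in the same strain, at 249 ± 93.2 CPM (SD, n = 26), and highest in (CC019/TauUncJ x CC075/UncJ)F1, at 442 ± 141 CPM (SD, n = 24). Mstn was highest in (CC009/UncJ x CC013/GeniUncJ)F1, at 84 ± 7.62 CPM (SD, n = 10). It was lowest in (CC011/UncJ x CC027/GeniUncJ)F1, at 50.6 ± 6.67 CPM (SD, n = 24). Their animals did not overlap, with 71 CPM the lowest of the former and 61 CPM the highest of the latter. Here, as for the other genes, the strains compared are the extremes, picked by these same values. How often the extreme strains of all genes fail to overlap was not counted. All 10 animals of the former were in the upper identifier range and all 24 of the latter in the lower. In the fit that holds strain constant, Mstn differed by -0.01 ± 0.04 between ranges (adjusted p = 0.924). The remaining genes spanned 1.80-fold (Foxo1), 1.77-fold (Fbxo32), 1.47-fold (Klf15), 1.46-fold (Asb2) and 1.42-fold (Foxo3) between the highest and lowest strain. The order of strains was a gradient for every gene: each of the 19 steps between neighbouring strain means was within the smaller SD of the pair.

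Strains that share a parental line had some levels in common, given here as descriptions since such strains are not independent. The 5 strains with a CC002/UncJ parent averaged 294 CPM of Fbxo32 against 367 CPM in the other 15, and 110.5 against 136 CPM of Trim63. For Foxo1 they were on the high side, at 31.9 against 25.7 CPM. The 6 strains with a CC042/GeniUncJ parent went the other way for the ligases, with 394 against 330 CPM of Fbxo32 and 148 against 122 CPM of Trim63. Mstn averaged 59.4 CPM in the 3 strains with a CC011/UncJ parent and 73.4 CPM in the rest.

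**Figure D2:**
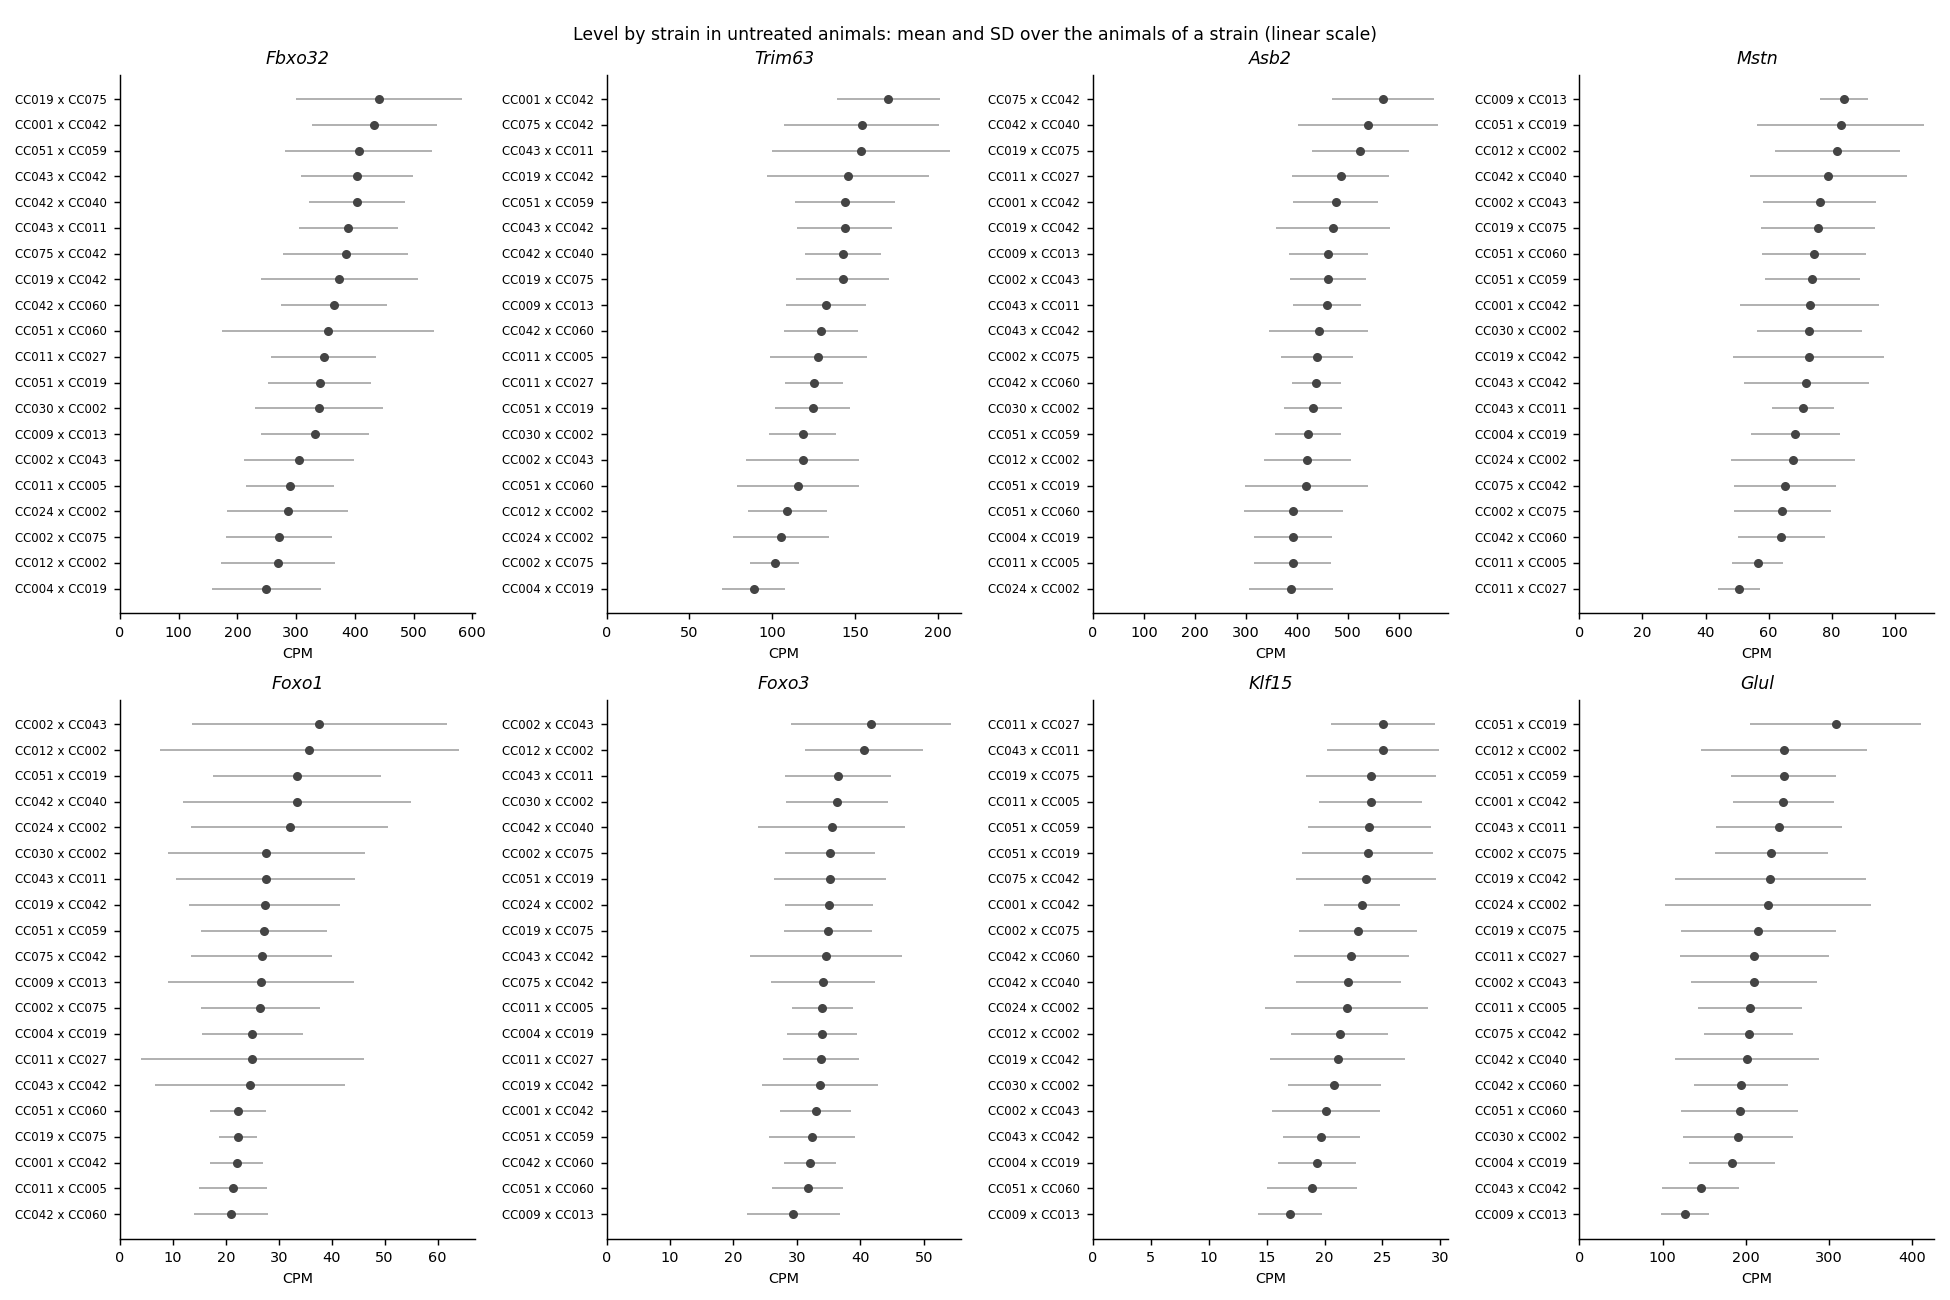
Mean and SD (CPM, linear axis from 0) of each gene over the untreated animals of each of the 20 strains, sorted by the mean. Glul has the widest range, 127 to 308 CPM, and neighbouring strains overlap within their SD for all 8 genes.

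The diet comparison asked whether the high-fat, high-sugar diet went with other levels in untreated muscle (234 animals on 10% fat, 235 on 44% fat). The 3 ubiquitin ligase genes rose on 44% fat and the other 5 genes did not pass the test, so 3 of 8 genes were called where 20.3% of all genes were. Fbxo32 ranged from 86.2 to 714 CPM on 10% fat (median 320 CPM) and from 118.7 to 805 CPM on 44% fat (median 362 CPM). The diets overlapped over nearly the whole range, with a fitted rise of 0.16 ± 0.04 (SE) on the log2 scale, or 1.12-fold (adjusted p = 0.00096). Asb2 had medians of 427 CPM (183 to 852) and 461 CPM (233 to 813), a rise of 0.08 ± 0.02 on the log2 scale (adjusted p = 0.00662). Trim63 had medians of 121 CPM (47.6 to 374) and 130 CPM (61.4 to 317), and its rise of 0.08 ± 0.03 was close to the threshold (adjusted p = 0.0447) and was not called without the filter on low counts, with DESeq2 or without the libraries that stood apart. For Mstn the fitted difference was -0.05 ± 0.02 (adjusted p = 0.14), with medians of 69.4 CPM (34.5 to 138) and 67.6 CPM (30 to 124). Glul had medians of 199 CPM (91.6 to 680) and 191 CPM (80.8 to 471) and a difference of -0.10 ± 0.04 (adjusted p = 0.0971). Foxo1 (0.07 ± 0.06, adjusted p = 0.446), Foxo3 (0.04 ± 0.02, adjusted p = 0.243) and Klf15 (0.04 ± 0.03, adjusted p = 0.273) also missed the threshold on the log2 scale.

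Fbxo32 was higher on 44% fat in 14 of 20 strains, Asb2 in 15 and Trim63 in 13. The diet difference of Fbxo32 depended on strain (adjusted p = 0.0218), as did that of Foxo1 (adjusted p = 0.000679), 2 of 8 genes where 4.13% of all genes had such an interaction, but limma voom called neither. For Fbxo32, the largest rise, 0.70 ± 0.17 on the log2 scale, was in (CC030/GeniUncJ x CC002/UncJ)F1, from a mean of 269 CPM to 408 CPM. All 5 strains with a CC002/UncJ parent had a positive difference with a median of 0.55 (0.20 to 0.70). Among the other 15 strains 9 were positive and the median was 0.11 (-0.30 to 0.43). The strains with this parent also averaged low in Fbxo32 (294 against 367 CPM), a mean that includes the same animals on 10% fat. The lowest strain, (CC004/TauUncJ x CC019/TauUncJ)F1 at 249 CPM, lacks this parent. The grouping by parent was chosen after the values were seen and not tested. Foxo1 moved both ways, from -0.67 in (CC024/GeniUncJ x CC002/UncJ)F1, with means of 40.6 CPM on 10% fat and 23.5 CPM on 44% fat, to 0.79 in (CC012/GeniUncJ x CC002/UncJ)F1, with means of 25.7 and 45.9 CPM.

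An interaction of diet with sex was called for none of the 8 genes (0 called by edgeR or limma voom, 0 at an unadjusted p under 0.05, against 0.568% of all genes called). Within the lower identifier range the same 3 ligase genes were called (3 of 8, against 17.2% of all genes), with Fbxo32 at 0.19 ± 0.04. The 69 animals of the upper range gave no call (0 of 8, against 2.20% of all genes, with 3 genes at an unadjusted p under 0.05). In the 234 metformin-treated animals the diet call fell on other genes (2 of 8, against 12.1% of all genes). There Foxo1 rose by 0.23 ± 0.06 (adjusted p = 0.00193) and Foxo3 by 0.10 ± 0.02 (adjusted p = 0.00215) on the log2 scale, while Fbxo32 was at 0.02 ± 0.06 and Asb2 at -0.02 ± 0.03. The diet differences of treated and untreated animals were compared directly as the interaction of metformin with diet, which was not called for any of the 8 genes (0.0902% of all genes). Its unadjusted p was under 0.05 for Fbxo32 (-0.16 ± 0.07, adjusted p = 0.492) and Asb2 (-0.10 ± 0.04, adjusted p = 0.483), and limma voom called 0.

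Other genes are read beside the 20.3% of all genes called for diet, from lists written with earlier results of these data known. Of 19 further ubiquitin and autophagy genes, 6 were higher and 2 lower on 44% fat, with a median difference of 0.04 on the log2 scale against -0.00299 over all genes. The smallest adjusted p-values were those of the F-box gene Fbxo21 (0.15 ± 0.02, adjusted p = 8.18e-12), the mitophagy receptor Bnip3 (0.08 ± 0.02, adjusted p = 1.87e-05) and the proteasome subunit Psmd11 (0.05 ± 0.01, adjusted p = 2.72e-05). Of 20 tested genes of myostatin, activin and bone morphogenetic protein signalling, 7 were higher and 4 lower. The signal transducer Smad3 fell by 0.14 ± 0.03, the ligand Gdf11, the closest relative of myostatin, fell by 0.19 ± 0.04, and Wfikkn2, a secreted inhibitor of both ligands, fell by 0.10 ± 0.02. Some markers of other cells were called for diet as well. Of adipocyte markers 4 of 5 were higher and 1 lower, and 2 of 6 slow fibre and 2 of 4 endothelial markers were higher. Lower were 2 of 6 fast fibre, 2 of 4 fibroblast and 2 of 3 satellite cell markers. The last were Myf5 and Calcr, at low medians of 0.89 and 0.29 CPM. With the slow fibre and adipocyte levels as covariates, Fbxo32 (0.17 ± 0.04), Asb2 (0.09 ± 0.02) and Trim63 (0.08 ± 0.03) stayed called. The fast fibre, endothelial, fibroblast and satellite cell levels were not used as covariates, so their part was not tested.

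The sexes were compared in untreated animals (236 females, 233 males). Mstn, Asb2 and Fbxo32 were higher in males and Foxo3, Glul and Klf15 higher in females, 6 of 8 genes where 67.1% of all genes were called. Mstn had a median of 57.8 CPM in females (30 to 94) and 84.5 CPM in males (37.8 to 138). The male level was 1.4-fold higher (0.49 ± 0.02 on the log2 scale, adjusted p = 6.48e-65). Foxo3 had a median of 38.3 CPM in females (28.9 to 71.1) and 29 CPM in males (11.7 to 53.2) and the ranges overlapped. Its difference was -0.42 ± 0.02 (adjusted p = 7.04e-57). Sex took 40.05% of the variance of Mstn and 40.1% of that of Foxo3, where genes of 5 CPM or higher had a median of 2.49%. Foxo1, the other FoxO gene, was at medians of 21.4 CPM (13.7 to 103.6) and 20.6 CPM (11.2 to 110.7) and missed the threshold (-0.10 ± 0.06, adjusted p = 0.149).

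The smaller sex differences split the set. Asb2 had medians of 420 CPM in females (233 to 755) and 472 CPM in males (183 to 852) and was higher in males by 0.19 ± 0.02 (adjusted p = 5.7e-13). Fbxo32, at medians of 333 CPM (86.2 to 733) and 361 CPM (135 to 805), was higher by 0.14 ± 0.04 (adjusted p = 0.00101). Trim63 was at 0.06 ± 0.03 (adjusted p = 0.0714), with medians of 124 CPM (47.6 to 374) and 128 CPM (66.6 to 252). Glul was lower in males (-0.24 ± 0.04, adjusted p = 1.26e-07), at medians of 217 CPM in females (97.9 to 680) and 172 CPM in males (80.8 to 601). Klf15 was lower too (-0.15 ± 0.03, adjusted p = 4.05e-07), at 23.1 CPM (11 to 40.2) and 20.9 CPM (9.23 to 37.8). Slow fibre markers moved with sex, all 6 lower in males with a median of -0.68 on the log2 scale, as did adipocyte markers (5 of 5 lower) and fast fibre markers (5 of 6 higher). Their part in the sex differences of the 8 genes was not tested. Treated animals gave 5 calls (against 53.2% of all genes), with Mstn at 0.54 ± 0.04, Foxo3 at -0.39 ± 0.02, Fbxo32 at 0.26 ± 0.06, Glul at -0.22 ± 0.05 and Asb2 at 0.19 ± 0.03, while Klf15 was at -0.04 ± 0.04 (adjusted p = 0.354).

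The sex difference of Mstn was small in the 3 strains with a CC011/UncJ parent, a grouping noticed in these values. In untreated (CC011/UncJ x CC005/TauUncJ)F1 animals the mean was 59.4 CPM in 12 females (48.8 to 70.4) and 54.1 CPM in 14 males (37.8 to 69.2), a difference of -0.14 ± 0.08 on the log2 scale. In (CC011/UncJ x CC027/GeniUncJ)F1 it was 48.7 CPM in females (35.5 to 61) and 52.5 CPM in males (40.3 to 60.8), a difference of 0.11 ± 0.08 with 12 animals of each sex. In (CC043/GeniUncJ x CC011/UncJ)F1 it was 64.5 CPM (52.7 to 75.4) and 77.3 CPM (61.7 to 86.4), a difference of 0.27 ± 0.07. In the other 17 strains the differences ran from 0.19 to 0.83 with a median of 0.56. The lowest of these was in (CC009/UncJ x CC013/GeniUncJ)F1, so the third cross, at 0.27, lay within their span. The largest was in (CC019/TauUncJ x CC042/GeniUncJ)F1, at 52.6 CPM in females and 92.9 CPM in males. Males of the first pair of strains stood apart, at 54.1 and 52.5 CPM against at least 75.1 CPM in males of every strain without this parent.

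Some of these libraries had doubtful sex labels. Among untreated (CC011/UncJ x CC005/TauUncJ)F1 animals, 5 libraries were of the 19 that went against their labels, and without them the means were 58.3 CPM in 9 females and 55.7 CPM in 12 males (-0.06 ± 0.08). The comparison in treated animals was added after the data were seen. It gave -0.10 ± 0.09 in the first strain (6 females, 6 males), 0.06 ± 0.06 in the second (5 females, 6 males) and 0.30 ± 0.10 in the third. These animals are of the same crosses, so their values cannot tell whether the shared line plays a part. Treated libraries against their sex label, found in both sexes on 44% fat, were not left out of it. The treated animals of the other 17 strains ran from 0.07 to 1.21 with a median of 0.58, and the value of 0.07 ± 0.21 belonged to (CC051/TauUncJ x CC060/UncJ)F1. The interaction of sex with strain in untreated animals was called for Mstn (adjusted p = 1.22e-11), also without the libraries against their labels (adjusted p = 4.47e-09) and with limma voom (adjusted p = 2.4e-12). It was called for 7 of the 8 genes, all but Klf15, where 34.1% of all genes were. Foxo3 was lower in males in 20 of 20 strains. The strain (CC043/GeniUncJ x CC042/GeniUncJ)F1 had the largest difference, -0.72 ± 0.10, and (CC011/UncJ x CC027/GeniUncJ)F1 the smallest, -0.16 ± 0.10, and in treated animals it was lower in 20 of 20 again. Fbxo32 was higher in males in 13 strains and lower in 7, from -0.45 in (CC019/TauUncJ x CC042/GeniUncJ)F1 to 0.88 in (CC051/TauUncJ x CC060/UncJ)F1, which were also the extremes of Trim63, at -0.41 and 0.47.

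The pathways around these genes are given beside the 67.1% of all genes called for sex. Among the 20 myostatin, activin and bone morphogenetic protein genes, 6 were higher in males and 6 lower, led by Gdf11 (0.78 ± 0.04), the activin receptor Acvr2a (0.34 ± 0.02) and the shared transducer Smad4 (0.15 ± 0.01). Among the 19 ubiquitin and autophagy genes, 9 were higher in males and 6 lower, with Fbxo21 at 0.38 ± 0.02, the muscle ring finger gene Trim54 at 0.29 ± 0.01 and the lysosomal protease Ctsl at -0.39 ± 0.02. Of 16 genes of the glucocorticoid response, 6 were higher and 5 lower. There Sesn1, a stress-induced inhibitor of mTORC1, was at -0.67 ± 0.02, the PI3 kinase subunit Pik3r1 at -0.55 ± 0.03 and the glucocorticoid receptor itself, Nr3c1, at -0.24 ± 0.02.

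Metformin was compared over all animals, with the limit on age given above. Glul, Foxo1 and Klf15 were lower and Fbxo32 higher in treated animals, 4 of 8 genes where 19.4% of all genes were called. Glul had a median of 194 CPM in untreated animals (80.8 to 680) and 153 CPM in treated animals (73.9 to 568), so the ranges overlapped while the centre shifted. The fitted difference was -0.31 ± 0.04 on the log2 scale, or 0.808-fold (adjusted p = 1.35e-11). Foxo1 had medians of 21.2 CPM (11.2 to 110.7) and 19.9 CPM (14.3 to 75.6) and differed by -0.22 ± 0.05 (adjusted p = 0.000608). Klf15 had medians of 22 CPM (9.23 to 40.2) and 19.4 CPM (11.3 to 37.6), a difference of -0.13 ± 0.03 (adjusted p = 5.14e-05). Fbxo32 had medians of 342 CPM (86.2 to 805) and 344 CPM (177 to 1364), and its rise of 0.10 ± 0.04 (adjusted p = 0.0432) was not called with limma voom, DESeq2 or fibre and adipocyte covariates. Trim63 (0.03 ± 0.03, adjusted p = 0.578), Mstn (-0.04 ± 0.02, adjusted p = 0.228), Foxo3 (-0.03 ± 0.02, adjusted p = 0.387) and Asb2 (-0.01 ± 0.02, adjusted p = 0.892) were not called.

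These differences varied with the identifier range. In the lower range (544 animals) the called genes were Glul (-0.37 ± 0.05), Foxo1 (-0.31 ± 0.06), Fbxo32 (0.20 ± 0.04) and Klf15 (-0.14 ± 0.03), 4 of 8 against 21.8% of all genes. In the upper range (159 animals) Asb2 was the only gene called of all those tested (0.00566%), at -0.21 ± 0.04 (adjusted p = 0.00544). There Glul was at -0.10 ± 0.06, Klf15 at -0.09 ± 0.05 and Foxo1 at -0.01 ± 0.08, while Fbxo32 was at -0.21 ± 0.08 and Trim63 at -0.16 ± 0.05, with the sign opposite to the lower range. The interaction of metformin with range was called for Asb2 (-0.26 ± 0.05, adjusted p = 0.000399), Fbxo32 (-0.37 ± 0.09, adjusted p = 0.0065), Trim63 (-0.25 ± 0.07, adjusted p = 0.027) and Glul (0.31 ± 0.09, adjusted p = 0.0347), 4 of 8 against 1.71% of all genes. The medians of Glul show where the ranges part: untreated animals stood at 204 CPM (80.8 to 680) in the lower range and 157 CPM (91.6 to 332) in the upper range, and treated animals at 157 CPM (91.4 to 568) and 146 CPM (73.9 to 310). Range itself was called for 3 of the 8 genes in untreated animals (against 22.4% of all genes), with Glul at -0.32 ± 0.08, Klf15 at -0.21 ± 0.05 and Fbxo32 at 0.19 ± 0.07 for upper minus lower. Since the ranges hold different strains and may hold different ages, the part of each cannot be told apart.

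Glul was lower with metformin in 17 of 20 strains and Klf15 in 16. Glul was lower in all 8 strains whose treated animals were in the lower range (median -0.46, from -0.64 to -0.17), and in the 5 strains with all treated animals in the upper range the median was -0.02 (-0.23 to 0.07). The lowest value of all was -0.88 ± 0.24 in (CC011/UncJ x CC005/TauUncJ)F1, in a fit that held the identifier range constant. This strain had treated animals in both ranges and no untreated animal in the upper range. Its fitted value therefore rests on 4 treated animals of the lower range. The plain means over both ranges were 205 CPM in untreated and 138 CPM in treated animals. Asb2 was positive in 7 of the 8 lower-range strains (median 0.16) and negative in all 5 upper-range strains (median -0.21). Fbxo32 was positive in 7 of 8 (median 0.24) and in 2 of 5 (median -0.20). The interaction of metformin with strain was called for Fbxo32, Trim63, Asb2, Foxo1 and Foxo3 (5 of 8, against 11.6% of all genes). With limma voom 3 were called, and Trim63 (adjusted p = 0.214) and Foxo3 (adjusted p = 0.0745) were not. Foxo3 was also not called without the libraries against their labels (adjusted p = 0.0761). The interaction with sex was called for none of the 8 genes by edgeR or limma voom (against 3.12% of all genes), with 1 at an unadjusted p under 0.05, Klf15 (0.11 ± 0.05, adjusted p = 0.182).

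Most of the listed genes that glucocorticoids are known to act on were lower with metformin. This list, like the others, was written with earlier results of these data known, so its count is a description and not a test. Of 16 tested, 13 were lower and 0 higher (against 19.4% of all genes called in either direction), with a median of -0.19 on the log2 scale against -0.00217 over all genes. The leaders were Ddit4 (-0.78 ± 0.11, adjusted p = 4.41e-09), which encodes an inhibitor of mTORC1, the transcription factor Klf9 (-0.07 ± 0.01, adjusted p = 3.24e-05) and Tsc22d3 (-0.22 ± 0.04, adjusted p = 4.15e-05), which encodes the glucocorticoid-induced leucine zipper. In the lower range 14 were lower and 1 higher (against 21.8% of all genes, median -0.27). In the upper range 0 were called in either direction (median 0.007), where only 0.00566% of all genes were called. Of 12 amino acid metabolism genes, 8 were lower and 0 higher (against the same 19.4%, median -0.11), led by glutamate dehydrogenase Glud1 (-0.09 ± 0.01), the branched-chain aminotransferase Bcat2 (-0.15 ± 0.02) and the alanine aminotransferase Gpt (-0.14 ± 0.02). In the upper range their median was -0.004. Among the 19 ubiquitin and autophagy genes 4 were higher and 1 lower (median 0.001), and among 20 of the myostatin list 5 were higher and 3 lower (median 0.03). Of the 4 fibroblast markers 2 were lower and of the 5 adipocyte markers 2 were lower with metformin. Fibroblast levels were not used as a covariate, so their part was not tested. With slow fibre and adipocyte levels as covariates, Glul (-0.28 ± 0.04), Foxo1 (-0.21 ± 0.05) and Klf15 (-0.12 ± 0.03) stayed called and Fbxo32 did not (0.08 ± 0.04, adjusted p = 0.161).

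**Figure D3:**
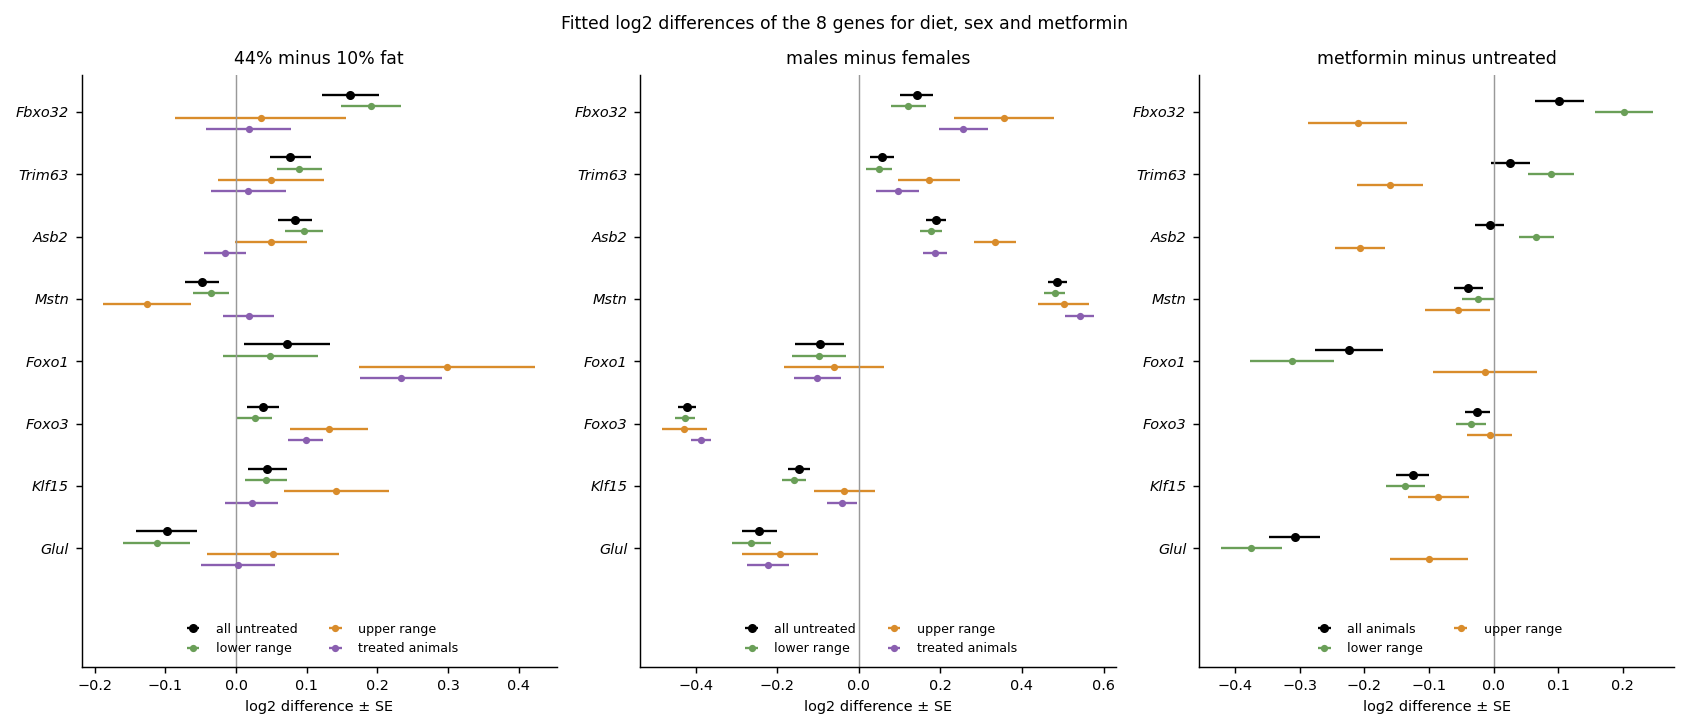
Fitted log2 differences with SE bars (horizontal axis) of the 8 genes for diet, sex and metformin, each with fits on part of the animals beside the main one. Mstn and Foxo3 lie farthest from 0 for sex, and Fbxo32, Trim63 and Asb2 lie on opposite sides of 0 for metformin in the lower and upper identifier ranges.

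**Figure D4:**
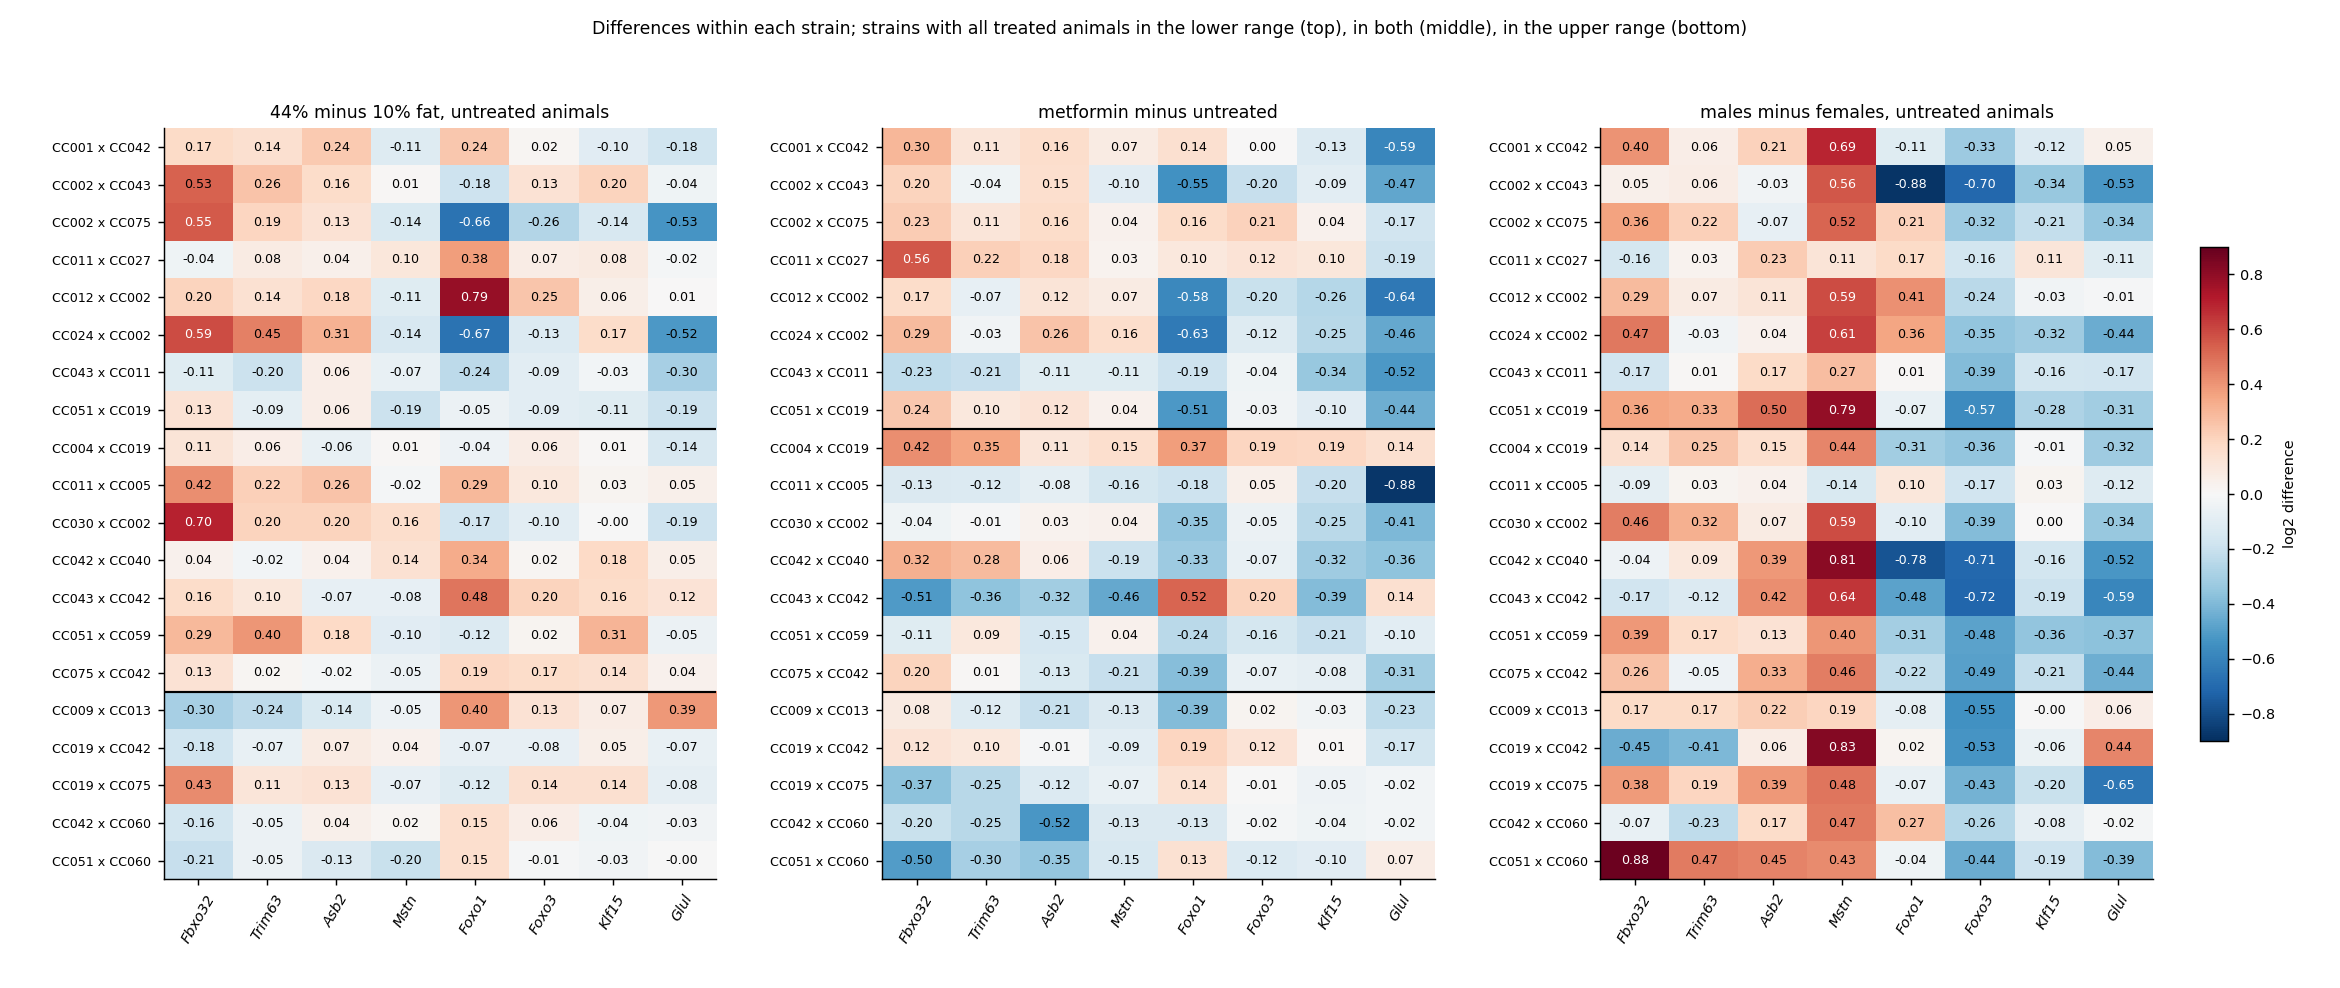
Difference on the log2 scale (colour and number) of each gene within each of the 20 strains for diet, metformin and sex, with strains named by their CC line numbers and sorted by the identifier range of their treated animals. The Mstn column for sex is at 0.27 or below in the 3 crosses with CC011 and in CC009 x CC013, and the Glul column for metformin is negative in all 8 strains of the top block.

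Some animals lay far above the rest of their group. Foxo1 exceeded 2 times the untreated median of 21.2 CPM in 58 untreated animals (12.4%) and 21 treated animals (8.97%), in every group of sex, diet and treatment. In treated animals these were 11 of 59 females and 5 of 59 males on 44% fat, and 3 of 57 females and 2 of 59 males on 10% fat. Glul did so in 18 untreated (3.84%) and 3 treated animals (1.28%), and Fbxo32 in 4 (0.853%) and 14 (5.98%). Klf15 and Asb2 did so in 0 animals. The spread between animals of the same strain, sex, diet and range was wide for these genes, with a residual SD of 0.60 on the log2 scale for Foxo1, 0.47 for Glul and 0.45 for Fbxo32, where genes of 5 CPM or higher had a median of 0.18.

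The ligases varied together from animal to animal, as did the FoxO genes and Glul. The description is Pearson's r of log2 CPM over the untreated animals after strain, sex, diet and range were taken out, and these libraries share their tissue sampling and depth. The ligases moved together, with r = 0.68 for Fbxo32 and Trim63, 0.50 for Trim63 and Asb2 and 0.46 for Fbxo32 and Asb2. The FoxO genes moved with each other (r = 0.74) and with Glul (0.63 for Foxo1 and 0.60 for Foxo3), and Klf15 was nearest to Glul among the 8 (0.48). Klf15 was also at 0.39 with Trim63, 0.28 with Fbxo32 and 0.26 with Asb2, and at 0.24 with Foxo1 and 0.39 with Foxo3. Between the FoxO genes and the first pair of ligases the values were low: Foxo1 was at -0.13 with Fbxo32 and 0.06 with Trim63, and Foxo3 at 0.05 and 0.14. These are RNA levels, and the activity of FoxO proteins, which are known to act on these ligase genes, was not measured. Asb2 was at -0.25 with Glul, and Mstn had its highest value with Glul (0.23) and 0.08 or less with each of the others. Across the 20 strain means r was 0.89 for Fbxo32 and Trim63, 0.71 for Klf15 and Glul and 0.67 for Foxo1 and Foxo3. Fast fibre markers had r = 0.49 with Asb2, 0.32 with Klf15 and 0.30 with Mstn.

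**Figure D5:**
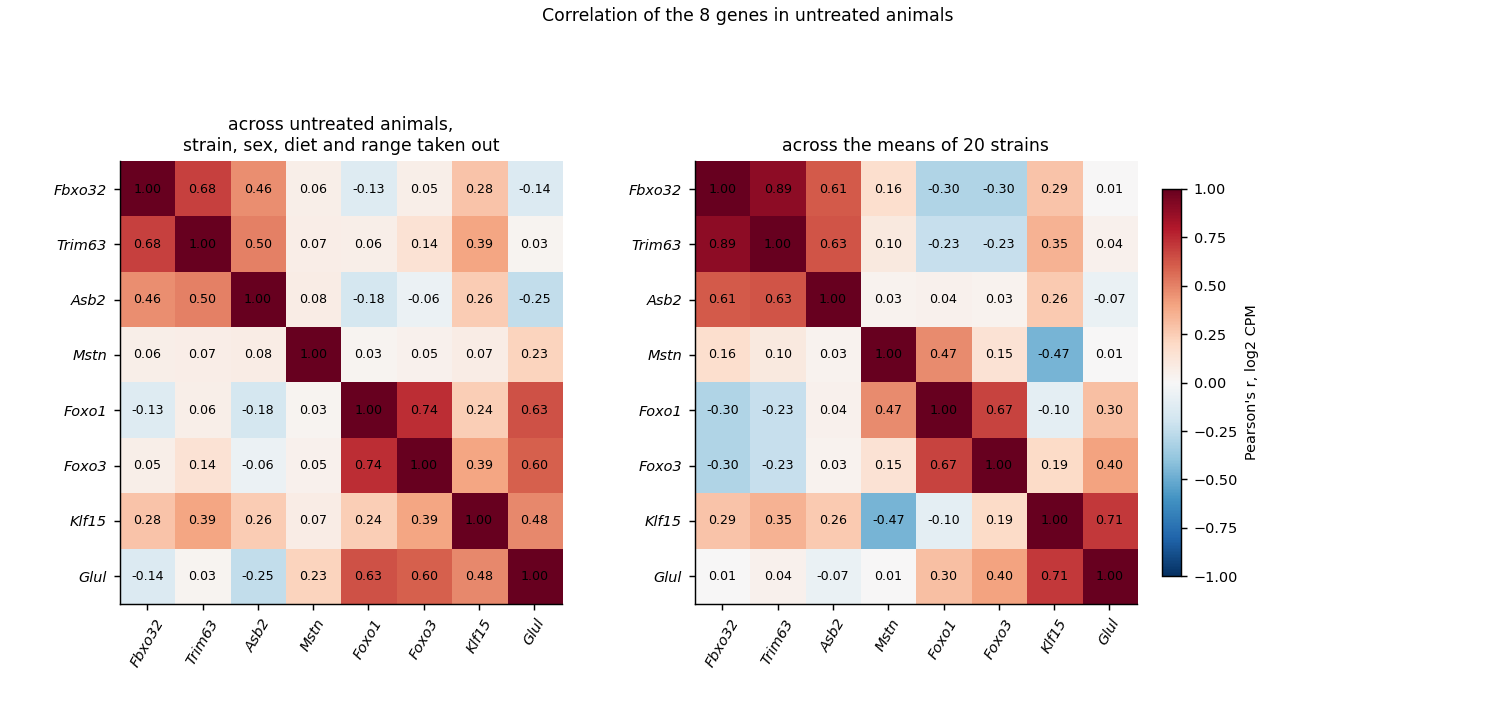
Pearson's r (colour and number) between the 8 genes across untreated animals after strain, sex, diet and range were taken out (left) and across the means of 20 strains (right). Fbxo32 and Trim63 have r = 0.68 and 0.89, Foxo1 and Foxo3 0.74 and 0.67, and the ligases and FoxO genes lie between -0.18 and 0.14 with each other on the left.

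The genes most like each member by the same measure were sought among 10137 genes. Fbxo32 was most like Klhl38 (r = 0.81), which encodes a kelch-like protein, then Trim63 and the lipoprotein receptor gene Vldlr (0.57). Trim63 was most like Fbxo32, then Fam134b (0.57), a receptor for autophagy of the endoplasmic reticulum, and Tmem140 (0.54). Asb2 was most like the kinase gene Dyrk2 (0.62), the integrin gene Itgb5 (0.61) and Arhgef10l (0.61). Foxo1 was most like the amino acid transporter gene Slc7a8 (0.80), Cnksr3 (0.80) and the kinase gene Map3k6 (0.79). Foxo3 was most like Foxo1, then the lipid droplet gene Plin4 (0.69) and Sec24a (0.68), of vesicle transport. Glul was most like Map3k6 (0.71), Fibin (0.70) and Plin4 (0.68). Klf15 was most like the kinase gene Pim3 (0.58), Gucd1 (0.51) and Glul. Mstn was most like Rab12 (0.61), a small GTPase gene, the ubiquitin-conjugating enzyme gene Ube2g1 (0.59) and Ttll7 (0.59).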

How the data were processed

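Gastrocnemius libraries were made from polyadenylated RNA. The values deposited by the authors are estimated counts per gene (expected counts, given as whole numbers): they combined both reads of a pair, aligned them as single reads to a transcriptome of the 8 founder strains and divided them between alleles and genes by expectation-maximisation (EMASE in GBRS), so a fragment can give more than 1 count. A deposited table of variance-stabilised values (log2 scale) was used only as an alternative.

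The counts were tested with edgeR 4.0.16 in R 4.3.3 (TMM, expression filter over the 8 groups, quasi-likelihood F tests, Benjamini-Hochberg adjustment, threshold 0.05), leaving 16384 genes in untreated and 17740 in all animals. Models held strain, sex, diet, identifier range (below or above 15000) and, over all animals, treatment. Standard errors (SE) were derived from the fit. Shares of variance (omega squared), correlations and differences within strains used log2 CPM with a prior count of 2. Alternatives used DESeq2 1.42.0, limma 3.58.1, other filters and subsets of animals. Each library was taken as 1 animal. Among 1404 pairs of libraries of the same strain and group the lowest chi-square per degree of freedom was 12.2. None was therefore counted as the same library given again. This check cannot tell whether different libraries came from 1 animal.

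Genes were named by rule: the 8 genes, the 3 genes of each pathway list with the smallest adjusted p and the 3 genes most like each of the 8. The genes and lists were chosen with earlier results of these data known. The interactions of sex with strain and of metformin with range, and the fits to treated animals alone, were added after the data were seen. The Fbxo32 promoter is not analysed here. Promoter sequences are from RefSeq, and positions are those of the deposited annotation, read as GRCm38.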

Additional observations from a re-analysis of the deposited data

Results flagged for a closer look

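Differences that depended on strain were met in 14 cases. Of all genes, 4.13% had a called interaction with strain for diet, 11.6% for metformin and 34.1% for sex. For diet, the interaction with strain gave an adjusted p of 0.0218 for Fbxo32 and 0.000679 for Foxo1. For metformin it gave 0.0034 for Fbxo32, 0.0149 for Trim63, 8.56e-05 for Asb2, 4.33e-05 for Foxo1 and 0.0308 for Foxo3, and 0.0761 for Foxo3 without the libraries against their labels. For sex it gave 0.000142 for Fbxo32, 0.00142 for Trim63, 0.00169 for Asb2, 1.22e-11 for Mstn, 0.000128 for Foxo1, 5.05e-05 for Foxo3 and 0.016 for Glul, in edgeR's quasi-likelihood test over untreated animals. With limma voom the sex by strain value of Foxo1 was 0.0601. Metformin by strain goes with the identifier range of a strain's treated animals, and its part was not tested. The 3 crosses of CC011/UncJ, where the sex difference of Mstn was small, were picked after their values were seen, and the line's part was not tested.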

How the results depend on the processing

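Of 296 refitted differences of single genes, 262 kept their direction and side of the threshold, 20 lost the call, 5 gained it and 9 changed sign. The upper identifier range alone, with fewer animals, called 0 of 8 genes for diet (against 2.20% of all genes) and 1 for metformin (against 0.00566%). It called 5 of 8 for strain, where the share of all genes was not computed. In it Glul was at 0.0521 for diet, and Fbxo32 (-0.21) and Trim63 (-0.16) were negative for metformin. Limma voom called 0 genes for diet by strain and 3 for metformin by strain, and put Trim63 at -0.00313 for metformin. Asb2 was at 0.0664 for metformin in the lower range and at 0.000286 on the deposited transformed values. In treated animals alone the diet difference was -0.016 for Asb2, 0.018 for Mstn and 0.00219 for Glul. The Trim63 diet call was lost with no filter on low counts (adjusted p = 0.0554), without libraries against their labels (0.0502), without libraries with high liver transcripts (0.0609) and with DESeq2 (0.0682). The Fbxo32 metformin call was lost with limma voom (0.096), the transformed values (0.0852), DESeq2 (0.0503), the covariates (0.161) and without the high-liver libraries (0.0544). For reversals other than those of subsets the cause was not tested. Lower depth was not tried, and the smallest count of any of the 8 genes was 356. No paired analysis was possible because every animal carries the same replicate number.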

Other observations

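Genes of denervated muscle and the other ASB genes gave further values, read beside the 20.3% (diet), 67.1% (sex) and 19.4% (metformin) of all genes called. Of 12 denervation genes, Dach2, a transcriptional cofactor, was the 1 called for diet, at 0.48 ± 0.05 on the log2 scale (adjusted p = 1.89e-20). For sex 2 were higher and 6 lower in males, with Musk, the kinase of the neuromuscular junction, at 0.82 ± 0.04 and Myog, a myogenic factor, at -0.73 ± 0.06. For metformin 3 were higher, Runx1 (0.22 ± 0.05) and the acetylcholine receptor genes Chrna1 (0.11 ± 0.03) and Chrnd (0.11 ± 0.04). Of 17 genes of ASB and Cullin-5 ligases, 2 were higher for diet, Asb15 (0.08 ± 0.03) and Asb18 (0.07 ± 0.02), 7 were higher and 8 lower in males, led by Asb5 (0.39 ± 0.02), and 5 were higher with metformin, led by Asb12 (0.07 ± 0.02).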
